A study of Drosophila melanogaster with 2 samples.

Results

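The genes described here encode G protein-coupled receptors for neuropeptides and peptide hormones in the head of adult Drosophila melanogaster. They were chosen by name as a list of 34 receptors, and FlyBase gene identifiers in the deposited tables were matched to their symbols. Of these, 33 were listed among the 12083 genes with at least 1 read in either library. AstA-R1, an allatostatin A receptor, has a current identifier that neither table lists, and no older identifier could be paired with it, so no value is given for it. Heads came from the white-eyed laboratory strain w1118, which both groups share, at 10 to 14 days of adult age. Flies were 4 to 7 days old when they were put for 6 days on a standard diet (control) or on that diet with sucralose, a chlorinated sweetener with almost no usable energy. Each diet has 1 library of total head RNA, with 10.3 M unique reads for control and 10.4 M for sucralose. The labels do not give sex, time of day, sucralose dose or how many heads were pooled. The study, by its title, asked whether sucralose raises food intake through neuropeptide signalling and a neuronal fasting response.

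Neuropeptides are cut from precursor proteins, released from dense-core vesicles and sensed at a distance by receptors that span the membrane and act through G proteins. In flies these receptors carry signals of hunger and satiety, daily time, water balance, mating and moulting. The rhodopsin-like receptors are the largest class here, the secretin-like receptors bind longer hormones such as diuretic hormones and pigment-dispersing factor, and the leucine-rich repeat receptors bind large glycoprotein or insulin- and relaxin-like hormones. A receptor gene and its ligand gene are usually transcribed in different cells, so the level of each was read separately from whole-head RNA.

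Because each diet has a single library, the replicate spread is unknown, the diets cannot be tested against each other, and p-values are left out. Folds divide the scaled reads of the sucralose library by those of the control library, and for a lower gene the inverse is printed. The range in brackets after a fold is its exact Clopper-Pearson 95% interval, which describes sampling of reads in these 2 libraries and says nothing of the spread among flies. In bulk RNA, fewer cells of a type and less RNA per cell cannot be told apart.

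As a group the receptor genes were level between the libraries. Their reads summed to 6397 with control and 6507 with sucralose, a fold of 0.998 (0.964 to 1.03). Of 32 receptors that reached a floor of 50 reads over the pair of libraries, 16 lay above 0 and 16 below 0, with a median log2 difference of -0.01. Over all 8889 genes that passed the same floor the median was 0.00, with 49.6% above 0 and 50.4% below. None of the 32 reached 1.5-fold higher, against a background of 1.96% of all genes, and 2 were at least 1.5-fold lower, which is 6.25% against a background of 4.12%. The 2 lower genes were AstA-R2 and FMRFaR. The share of lower receptors is near the background and is a statement about these 2 genes, not about receptors as a class. The interval left out a fold of 1 for 10 of the 32 receptors (31.25%), against a background of 36.3% of all genes. Of these 10, 5 were higher (background 17.3%) and 5 lower (background 19.0%). For 19 of the 32 (59.38%), the whole interval lay within 1.5-fold in either direction, against 6499 of all 8889 genes, a larger share.

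**Figure D1:**
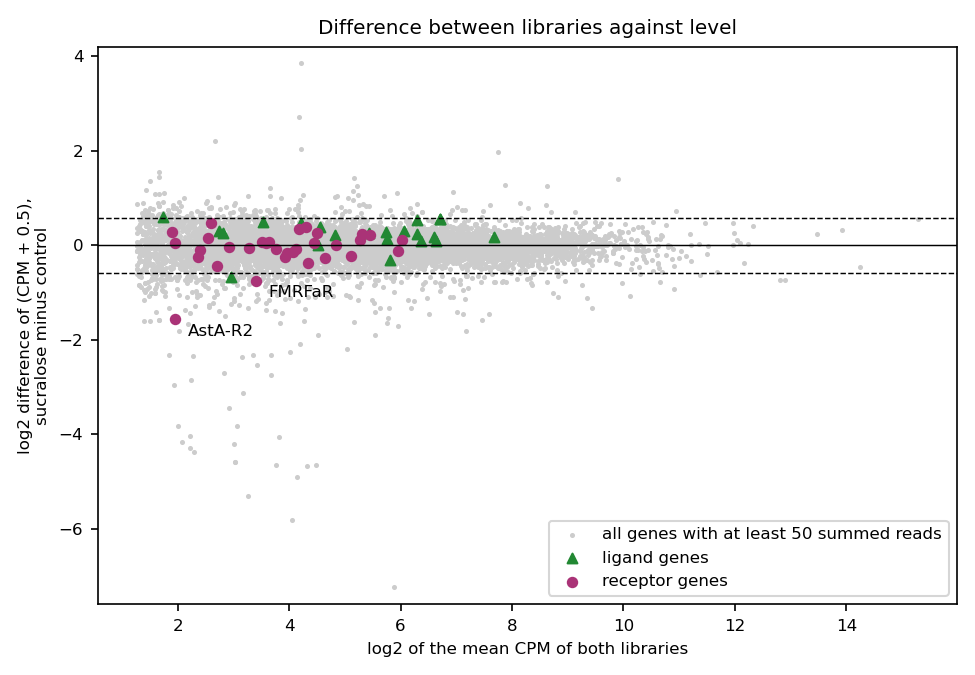
Log2 difference of (CPM + 0.5), sucralose minus control, against log2 of the mean CPM of both libraries, for 8889 genes (grey), 32 receptor genes (purple circles) and 22 ligand genes (green triangles). Dashed lines mark 1.5-fold. The receptors scatter about 0 with AstA-R2 and FMRFaR below the lower line. Of the 22 ligand genes, 19 lie above 0, against 49.6% of all genes.

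Levels are compared between genes on the deposited RPKM scale, which divides reads by gene length and library size. Most receptor genes were expressed at low levels for a whole head. The median receptor had 4.41 RPKM with control and 4.51 RPKM with sucralose, and 6 of the 33 lay above the median of all listed genes, 10.2 RPKM. The highest level belonged to SPR, the sex peptide receptor, with 20.01 and 21.8 RPKM, at percentile 68.9 of all listed genes. Pdfr, the receptor by which clock neurons read pigment-dispersing factor, followed with 19.9 and 18.3 RPKM. The secretin-like receptors Dh44-R2, Dh31-R and Dh44-R1 and the glycoprotein hormone receptor Lgr1 made up the rest of the 6. CapaR, which acts in the renal tubules in flies, was the lowest, with 0.799 and 0.577 RPKM from 15 and 11 reads, and was the 1 listed receptor under the floor of 50 summed reads. The tubule marker Uro had 1 control read and 0 sucralose reads, against 1010 and 1093 reads for Best2, listed with it.

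The order of levels was close in the 2 libraries. Pearson's r of log2 RPKM over the 33 receptors was 0.944, a description across genes, which are not independent replicates and share gene length between the libraries. When receptors were ranked by level, neighbours in the order mostly could not be separated. Exact Poisson 95% intervals stood apart for 1 of 32 neighbouring pairs in the control library (Pdfr above Dh44-R2) and for 3 in the sucralose library (SPR above Pdfr, Dh44-R2 above Dh31-R and Dh44-R1 above Proc-R). Of the 33, 7 changed rank by more than 3 places. AstA-R2 moved from rank 25 to 32 and FMRFaR from rank 18 to 25, whereas PK2-R1 moved from rank 29 to 23.

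**Figure D2:**
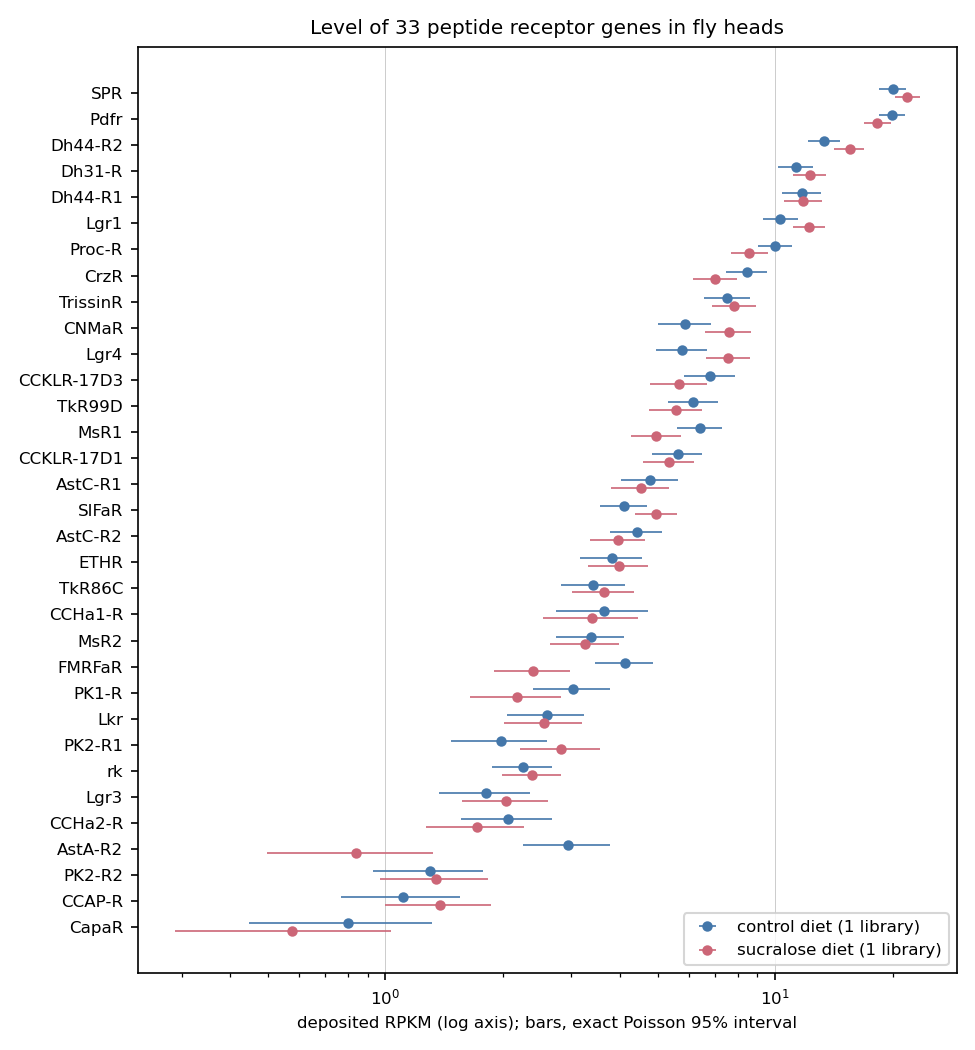
Deposited RPKM (log axis) of the 33 listed receptor genes in the control (blue) and sucralose (red) library, 1 library each, with exact Poisson 95% intervals for counting error. SPR and Pdfr are highest and CapaR lowest, and the intervals of AstA-R2 and of FMRFaR do not overlap between the libraries.

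AstA-R2 and FMRFaR stood furthest from the rest. AstA-R2 (FBgn0039595), a receptor for allatostatin A, a peptide known for reducing feeding, had 62 control reads (2.93 RPKM) and 18 sucralose reads (0.839 RPKM). It was 3.51-fold lower (2.05 to 6.31). Reads covered 71.43% of its gene model with control and 29.35% with sucralose, where evenly placed reads of 49 bases would cover 77.2% and 34.9%. The reads in both libraries were thus spread over most of the length their number allows. In flies AstA-R2 is known from the cells of the corpora cardiaca that make adipokinetic hormone and from insulin-producing cells, and it is also expressed in the gut. Akh, the hormone gene of the corpora cardiaca, had 89 control reads and 8 sucralose reads. The 5 gut markers summed to 1412 and 30 reads, or 138 and 2.87 CPM. All 5 were at least 1.5-fold lower, against 4.12% of all genes, and 2 (Jon99Cii and LysC) were at 0 in the sucralose library. The part of these tissues in the value of AstA-R2 was not tested.

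FMRFaR (FBgn0035385), the receptor for FMRFamide, a peptide that acts on muscle and neurons, had 137 control reads (4.12 RPKM) and 81 sucralose reads (2.40 RPKM). It was 1.72-fold lower (1.30 to 2.30). Coverage of its gene model went from 85.25% to 70.1%, close to the 87.4% and 70.6% that evenly placed reads would give. The 4 listed muscle markers summed to 25081 and 17076 reads (2447 and 1634 CPM), and all 4 were below 0, 3 of them at least 1.5-fold lower. Of the 5 glial markers, all were below 0 and 3 were at least 1.5-fold lower, with summed reads of 20624 and 13137. The intervals of the other 2 included no difference, and Gs2 alone had 15598 and 10360 of these reads. Over all genes, 50.4% lay below 0 and 4.12% were at least 1.5-fold lower. None of the muscle or glial markers was at 0 in either library. Their part in the value of FMRFaR was not tested. With a pseudocount of 5 CPM in place of 0.5, FMRFaR no longer reached 1.5-fold, with a log2 difference of -0.53.

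The other receptors for peptides of hunger, satiety and nutrient state differed less. Drosulfakinin, the fly relative of cholecystokinin and a satiety signal, has a pair of receptors. CCKLR-17D1 had 184 and 178 reads and CCKLR-17D3 had 170 and 144 reads, and the intervals of both included no difference. Of the receptors for hugin peptides, which reduce feeding, PK2-R1 had 51 and 74 reads (1.42-fold higher, 0.983 to 2.08), the highest fold of any receptor, and PK2-R2 had 39 and 41 reads. Neither interval left out a fold of 1.

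Diuretic hormone 44 is made by brain neurons that respond to nutritive sugars. Its receptor Dh44-R2 had 418 and 493 reads (1.16-fold higher, 1.01 to 1.32), and Dh44-R1 had 294 and 301 reads. Reads covered only 78.94% of the Dh44-R2 model with control and 79.14% with sucralose, where even placement would give 99.9% and nearly all of it, and 33.2% of its exon bases are shared with CG34234 on the opposite strand. SIFaR, the receptor for SIFamide, which acts in appetitive and sexual behaviour, had 211 and 260 reads (1.21-fold higher), with a lower bound just above 1. CNMaR, the receptor for CNMamide, a peptide linked to amino acid appetite, had 163 and 214 reads (1.29-fold higher, 1.05 to 1.59).

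The intervals of the remaining receptors of this kind all included a fold of 1. Lkr, the leucokinin receptor of meal size and water balance, had 78 reads in each library. CCHa2-R, through which a peptide of gut and fat body acts on insulin-producing cells, had 58 and 49 reads (fold 0.829, 0.555 to 1.23). TkR99D, the main tachykinin receptor, had 182 and 167 reads. AstC-R1 and AstC-R2, receptors for allatostatin C, had 143 and 137 reads and 169 and 154 reads. Among all 14 listed receptors of the feeding group, AstA-R2 included, 6 lay above 0 and 8 below 0, with a median of -0.05. Over all genes, 49.6% lay above 0 and 50.4% below.

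Receptors of the clock and sleep circuits all lay near a fold of 1. Pdfr had 660 and 615 reads (fold 0.914, 0.818 to 1.02), and Dh31-R, the receptor of diuretic hormone 31, had 380 and 420 reads (1.08-fold, 0.942 to 1.25). TrissinR, whose ligand is a disulfide-bonded peptide, had 220 and 233 reads, and CCHa1-R had 56 and 53 reads. For Pdfr, Dh31-R and TrissinR, the interval lay wholly within 1.5-fold, so a difference of that size lay outside counting error. CCHa1-R was too shallow for that, with an interval of 0.625 to 1.38. Reads covered 82.94% and 81.21% of the Pdfr model, although its depth would cover nearly all of it if reads were evenly placed.

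Among receptors of stress peptides and of peptides acting on muscle, all 5 over the floor lay below 0, against 50.4% of all genes. Their median log2 difference was -0.27. The intervals of 4 of them lay below a fold of 1, against a background of 19.0% of all genes. The group was put together by known roles with values already seen, so its shared direction is a description. Besides FMRFaR, MsR1, a myosuppressin receptor, had 233 and 183 reads (1.30-fold lower, 1.06 to 1.58). CrzR, the corazonin receptor of stress responses, had 281 and 237 reads (1.21-fold lower, 1.01 to 1.44), and Proc-R, the receptor for the muscle-exciting peptide proctolin, had 381 and 332 reads (1.17-fold lower, 1.01 to 1.36). Reads covered only 75.01% and 75.71% of the Proc-R model, where even placement would give 99.35% and 98.76%. MsR2, the other myosuppressin receptor, had 101 and 99 reads (fold 0.962, 0.721 to 1.28). The part of the muscle markers, given above, in these values was not tested.

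Receptors of reproduction and moulting differed little. SPR had 638 and 706 reads (1.09-fold, 0.974 to 1.21). The annotation places 26.8% of its exon bases within frma on the opposite strand. TkR86C, the natalisin receptor, which acts in courtship and mating, had 113 and 122 reads. ETHR, which starts ecdysis behaviour, had 121 and 128 reads, CCAP-R had 34 and 43, and rk, the bursicon receptor of cuticle tanning, had 125 and 134. Each of these 5 intervals included no difference. PK1-R, the receptor for a pyrokinin cut from the Capa precursor, had 78 and 57 reads (1.40-fold lower), with an interval that began at 0.979 and so included no difference.

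All 4 leucine-rich repeat receptors lay above 0, as did 49.6% of all genes. Their median log2 difference was 0.20, against -0.08 for the 24 rhodopsin-like and 0.06 for the 4 secretin-like receptors over the floor. Lgr4, a relative of relaxin receptors, had 176 and 235 reads (1.31-fold higher, 1.07 to 1.60), and Lgr1 had 370 and 446 reads (1.18-fold higher, 1.03 to 1.36). Lgr3, the receptor for the growth-coordinating insulin-like peptide Ilp8, had 56 and 64 reads. The fourth is rk, whose interval included no difference. In the annotation, Lgr4 shares 29.2% of its exon bases with CG12096 and Lgr3 shares 34.5% with an RNA gene, both on the opposite strand, so some of their reads may belong to those genes. The classes were compared with values already known, and no difference between them was tested.

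**Figure D3:**
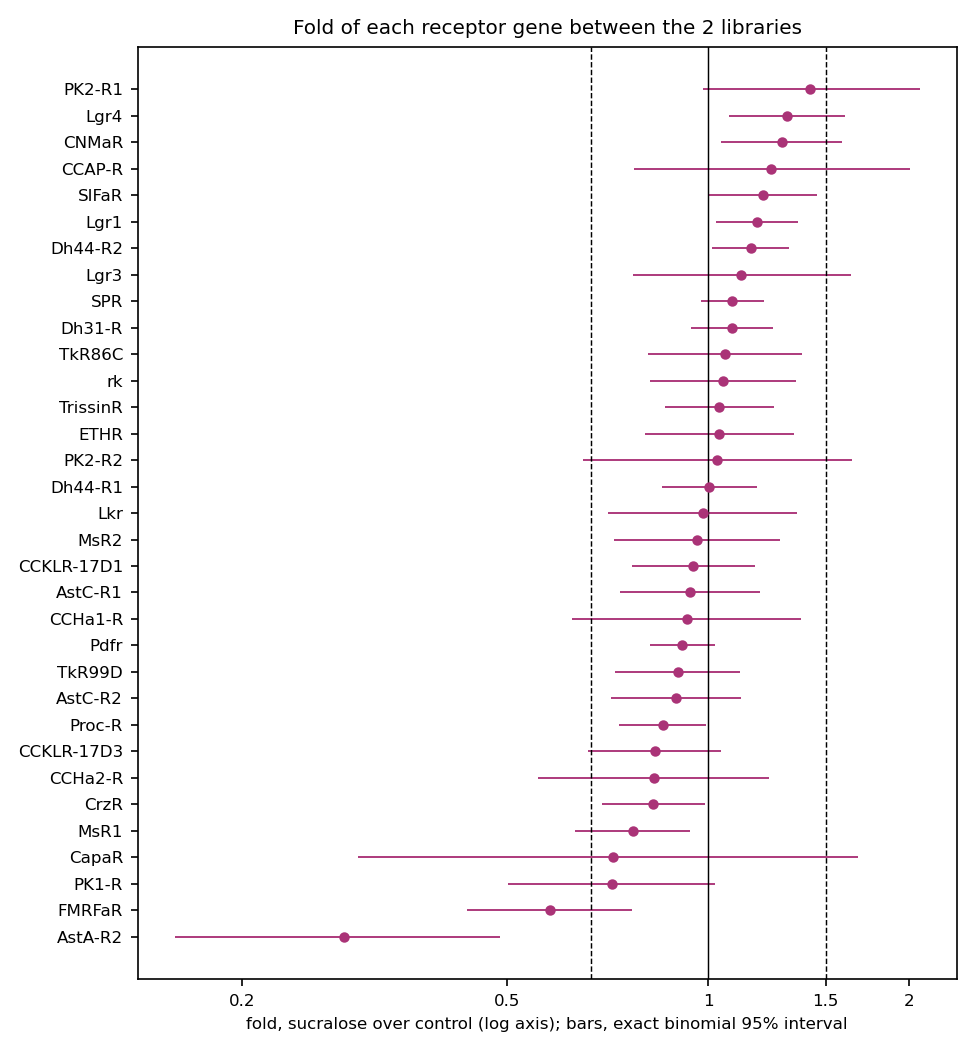
Fold of each of the 33 listed receptor genes, sucralose over control (log axis), with exact binomial 95% intervals for counting error. The solid line marks no difference and the dashed lines 1.5-fold. AstA-R2 and FMRFaR lie beyond the lower dashed line, and no receptor lies beyond the upper one.

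Some receptors lie side by side in the genome, and receptors for the same peptide could be compared directly. In the BDGP6 annotation, MsR1 and MsR2 have 0 protein-coding genes between them, as do PK2-R1 and PK2-R2, while AstC-R1 and AstC-R2 have 1 between and the CCKLR-17D1 and CCKLR-17D3 genes have 4. The fold of MsR1 over that of MsR2 was 0.802 (0.563 to 1.14), and that of Dh44-R1 over Dh44-R2 was 0.868 (0.702 to 1.07). For PK2-R1 over PK2-R2 it was 1.38 (0.754 to 2.52), for CCKLR-17D1 over CCKLR-17D3 1.14 (0.834 to 1.56), and for AstC-R1 over AstC-R2 1.05 (0.754 to 1.47). All 5 intervals included 1, so no same-ligand pair could be told apart in its fold at this depth, and the wider intervals still allow differences of over 1.5-fold. In level, MsR1 stood 1.90 times above MsR2 in control RPKM and 1.52 times in sucralose RPKM, and PK2-R1 stood 1.52 and 2.10 times above PK2-R2.

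Each receptor was then set beside its own ligand gene, and here the pairs mostly leaned one way. Both genes passed the floor for 27 receptors with 22 ligand genes. The receptor fold was below the ligand fold in 24 of the 27 pairs and above it in 3, and the median of receptor fold over ligand fold was 0.783. Dividing the folds cancels the scaling between the libraries. The exact 95% interval of this ratio lay below 1 for 10 pairs, above 1 for 1 pair and included 1 for 16. Summed over all listed genes, the receptor fold over the ligand fold was 0.838 (0.803 to 0.875). The receptor side, as the sum of the 33 listed receptors, was level and the ligand side higher. Peptide receptors outside this list, given below, were higher as a sum. The 27 listed ligand genes summed to 11747 and 14255 reads (1.19-fold higher, 1.16 to 1.22). Of the 22 over the floor, 19 lay above 0, against 49.6% of all genes, with a median of 0.27. Intervals lay above 1 for 12 of the 22, against 17.3% of all genes, and below 1 for 2, against 19.0%. That ligand genes were mostly higher was known before the pairs were set up, so the pair count is no independent support for it.

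The widest gaps were those of the 2 lower receptors. AstA had 491 and 611 reads (1.22-fold higher, 1.08 to 1.38), so the fold of AstA-R2 was 0.234 of its ligand's (0.128 to 0.406). FMRFa had 157 and 225 reads (1.41-fold higher, 1.14 to 1.74), and the ratio for FMRFaR was 0.413 (0.289 to 0.589). In both pairs the receptor gene was lower and the ligand gene higher in the sucralose library, with intervals on opposite sides of 1. The same held for CrzR, whose ligand gene Crz had 209 and 280 reads (ratio 0.630, 0.487 to 0.814), and for MsR1, whose ligand gene Ms had 1953 and 2262 reads (ratio 0.678, 0.550 to 0.835).

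For the other 6 of the 10 pairs with an interval below 1, the ligand gene was higher and no receptor was lower by its own interval. Dh44 had 865 and 1290 reads (1.46-fold higher, 1.34 to 1.60), which put Dh44-R1 at 0.687 (0.570 to 0.828) and Dh44-R2 at 0.791 (0.674 to 0.928) of the ligand's fold. Mip, whose myoinhibiting peptides are ligands of SPR besides sex peptide, had 866 and 1299 reads (1.47-fold higher, 1.35 to 1.61), and the ratio for SPR was 0.738 (0.642 to 0.848). Pdf had 613 and 771 reads, with a ratio of 0.741 (0.634 to 0.866) for Pdfr. AstC-R2 (0.752, 0.588 to 0.962) and PK1-R beside Capa (0.594, 0.404 to 0.870) complete the 10 pairs, PK1-R with a fold of 0.717 of its own whose interval included 1.

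For some peptides receptor and ligand gene had close folds. Hug had 661 and 975 reads (1.45-fold higher, 1.31 to 1.60), and PK2-R1 beside it gave a ratio of 0.984 (0.669 to 1.46). The other Hug receptor, PK2-R2, gave a lower ratio of 0.713, with a wide interval that included 1 (0.443 to 1.15). Dh31 and its receptor gave a ratio of 0.954 (0.807 to 1.13). Proc had 639 and 525 reads (1.24-fold lower, 1.10 to 1.40) and was lower together with Proc-R, at a ratio of 1.06 (0.876 to 1.28). The natalisin gene had 234 and 238 reads, and TkR86C beside it gave 1.06 (0.767 to 1.47).

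The SIFamide pair ran the other way. SIFa had 99 and 61 reads (1.65-fold lower, 1.19 to 2.31) while SIFaR was 1.21-fold higher, a ratio of 1.998 (1.36 to 2.94). It is the 1 pair whose interval lay above 1, and 21.1% of the exon bases of SIFa are shared with another gene. Across the 27 pairs, Pearson's r between the log2 differences of receptor and ligand was 0.05 and Spearman's rho was 0.29, a description over pairs that share libraries and in part ligands.

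**Figure D4:**
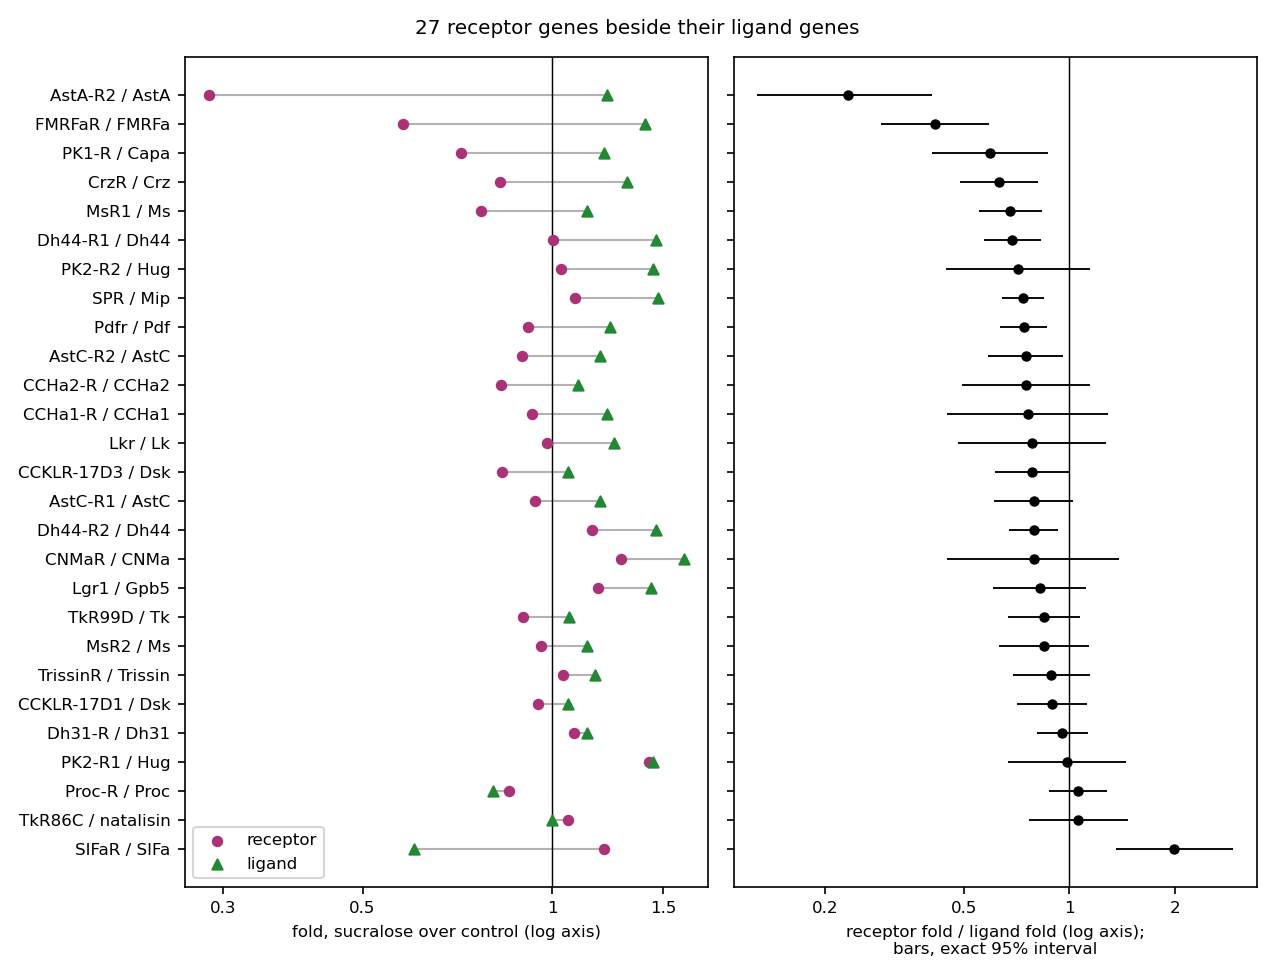
Left, fold (sucralose over control, log axis) of the receptor gene (purple circle) and its ligand gene (green triangle) for 27 pairs with both genes over 50 summed reads. Right, receptor fold divided by ligand fold with its exact 95% interval, below 1 for 24 pairs, with AstA-R2 lowest and SIFaR highest.

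Among pairs with both genes over the floor, ligand genes also stood above receptor genes in level. In RPKM, the ligand gene was higher than its receptor gene in 26 of the 27 pairs in each library, with a median ratio of 6.17 with control and 6.47 with sucralose. Over all 33 pairs with both genes listed, the ligand gene was higher in 28 with control and in 27 with sucralose. The floor thus leaves out pairs with a scarce ligand, such as Ilp7 at 0.0486 and ETH at 0.280 of the control RPKM of Lgr4 and ETHR. MsR2 lay at the far end, with Ms at 61.1 times its RPKM in the control library. The exception over the floor was CNMa, which with 26 and 43 reads lay at 0.227 of the control RPKM of CNMaR. AstA stood at 11.3 times the RPKM of AstA-R2 with control and at 48.3 times with sucralose, and FMRFa went from 2.60 to 6.30 times the RPKM of FMRFaR. SIFa went from 4.15 to 2.07 times the RPKM of SIFaR.

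**Figure D5:**
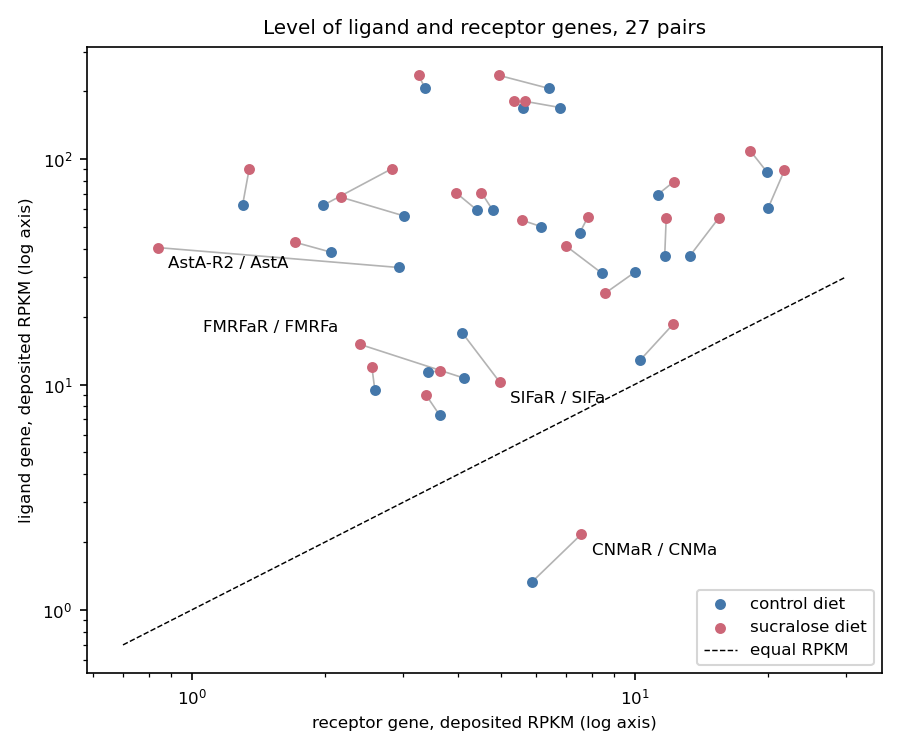
Deposited RPKM of the ligand gene against that of its receptor gene (log axes) for 27 pairs, in the control (blue) and sucralose (red) library, joined by a line. All pairs except CNMaR with CNMa lie above the dashed line of equal RPKM, and AstA-R2 with AstA makes the longest move, to lower receptor RPKM.

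Some ligand genes had few reads in the head. Ilp7, reported as a ligand of Lgr4 in larvae, had 3 reads in each library, and Ilp8 had 5 and 2 beside Lgr3. ETH had 8 and 17 reads, or 1.07 and 2.23 RPKM beside 3.80 and 3.96 RPKM for ETHR. In the annotation, 90.5% of the ETH exon bases are shared with an RNA gene on the opposite strand. Some of the ETH reads may belong to that gene. CCAP had 16 and 14 reads, at 1.12 times the RPKM of CCAP-R with control and 0.778 times with sucralose. Of the glycoprotein hormone subunits that act on Lgr1, Gpa2 had 14 and 12 reads and Gpb5 had 97 and 142 (1.44-fold higher, 1.10 to 1.88). The current identifiers of the bursicon genes Burs and Pburs were listed in neither table, and older identifiers could not be paired with them, so rk has no ligand value. At these counts no difference in ligand level was detectable for Ilp7, Ilp8, CCAP, ETH or Gpa2.

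Genes of the signalling proteins next to these receptors mostly differed by less than 1.5-fold. Over all genes, 49.6% lay above 0, 1.96% were at least 1.5-fold higher and 4.12% lower. Of 10 G protein subunit genes, 3 lay above 0 and 7 below, none beyond 1.5-fold, with a median of -0.11. Intervals lay below 1 for 5 of the 10, against 19.0% of all genes, and above 1 for 1, against 17.3%. Their median of 4826 summed reads, against 376 over all listed genes, gives narrower intervals. Galphai, the inhibitory alpha subunit, had 489 and 381 reads (fold 0.764, 0.667 to 0.876). Of 8 genes of receptor shut-off (kinases, arrestins and regulators of G protein signalling), 6 lay above 0, none beyond 1.5-fold, with a median of 0.09, and the visual arrestin gene Arr2 was 1.24-fold higher (1.24 to 1.25). Photoreceptor markers were higher in the same library, all 5 above 0, with summed reads of 381646 and 570444 and none at 0, and their part in the value of Arr2 was not tested. Of 14 second-messenger genes none passed 1.5-fold, with a median of 0.00. Of 21 amine, acetylcholine, GABA, glutamate and adenosine receptor genes, 9 lay above 0 and 12 below, with a median of -0.07. Among these 21, only the octopamine receptor gene Octbeta2R passed 1.5-fold (1.73-fold higher, 1.30 to 2.30). Intervals lay above 1 for 4 of the 8 shut-off genes and below 1 for 1. They lay above 1 for 3 and below 1 for 5 of the 14 second-messenger genes. For the 21 receptor genes, 1 lay above and 3 below.

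Another 5 peptide receptor genes, those of the neuropeptide Y-like and adipokinetic systems with hec, were read alongside. They summed to 1366 and 1755 reads (1.26-fold higher, 1.17 to 1.35). The 4 over the floor all lay above 0, with a median of 0.31, none of them by 1.5-fold, and AkhR had 694 and 913 reads (1.29-fold higher, 1.17 to 1.43). The 5 neuronal markers summed to 45023 and 45224 reads (fold 0.985, 0.973 to 0.998), but they did not move together. Of these, nSyb was 1.15-fold higher (1.12 to 1.17) and the other 4 lay below 0, with a median of -0.14 over the 5. Intervals lay below 1 for 3 of them and above 1 for 1, against 19.0% and 17.3% of all genes. None passed 1.5-fold and none was at 0.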

How the data were processed

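Per the labels' protocols, Trizol-extracted head RNA was made into standard Illumina libraries. Per the file headers, the authors deposited unique read counts per gene (raw whole numbers that sum to the header total), gene length, coverage as the percent of the gene model with reads, and RPKM, which recomputation from counts and lengths returned. For aligner, build, annotation release and strandedness, the sources used here name nothing. Unique counting may lose reads of near-identical copies, and reads of overlapping genes may be mixed.

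Counts of all 12083 genes were scaled with the TMM method of edgeR 4.0.16 in R 4.3.3. Differences are log2 of (CPM + 0.5), and genes with at least 50 summed reads were counted, with 1.5-fold as the mark. Fold intervals are conditional Clopper-Pearson intervals, and pair ratios are conditional odds ratios with exact intervals (SciPy 1.17.1). PCR copies cannot be recognised without molecular identifiers, so intervals cover counting error only. Symbols came from a table of gene identifiers, and exon sharing and gene order from the gene and exon coordinates of the BDGP6.54 annotation. The read length of 49 bases was taken from genes with 1 read. The code was tested on simulated data.

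Members, lists and pairs were chosen with earlier results of these data known. The naming rule takes every receptor and ligand and up to 2 genes of each other list. Alternatives were scalings (DESeq2 1.42.0 size factors among them), floors, pseudocounts, deposited RPKM, the mean, and genes without shared exons. The last was also applied to pairs, and ligands were counted once, after seeing the data. No sequences are shown.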

Additional observations from a re-analysis of the deposited data

How the results depend on the processing

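The median log2 difference of the receptors ran from -0.03 to 0.01 over the scalings, floors, pseudocounts and deposited RPKM tried, and was -0.06 without the 4 receptors that share exon bases, as was the mean. The summed fold ran from 0.998 to 1.01 over the scalings, the only choice it was tried under. The count of receptors at least 1.5-fold higher was 0 throughout. The count at least 1.5-fold lower was 2, except 1 with a floor of 200 reads, which leaves out AstA-R2, and 1 with a pseudocount of 5 CPM, which leaves out FMRFaR. At that pseudocount AstA-R2 had a log2 difference of -0.72, and no sign of a called gene changed under any alternative. For all genes, the counts at least 1.5-fold higher and lower were 174 and 366, with 459 and 695 without a floor, 84 and 216 at a floor of 200 reads, and 61 and 206 at a pseudocount of 5 CPM. In 4 pairs, a gene shares at least 20% of its exon bases. Without them, the receptor fold was below the ligand fold in 21 of 23 pairs. The number of intervals below 1 went from 10 to 8, since the pairs of SPR and Dh44-R2 are left out. The number above 1 went from 1 to 0, since the SIFamide pair is left out. With each ligand counted once, the receptor fold was below the ligand fold in 19 of 22, with 9 intervals below 1. No paired analysis was possible because each diet has 1 library and no test was made. No library could be left out for the same reason. For 13 of the 32 receptors, with 77 to 416 summed reads, the interval reaches beyond 1.5-fold in at least 1 direction. The interval of AstA-R2 (fold 0.159 to 0.488) lies wholly beyond it. For the others, the depth does not settle whether the fold passes 1.5.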
